A study of Rattus norvegicus with 6 samples.

Results

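Fatty acid oxidation was followed through 42 genes in rat kidney cortex after 4 weeks of 1-amino-2,4-dibromoanthraquinone, a brominated anthraquinone dye intermediate called ADBAQ here. The genes came from a list of enzymes, transporters and regulators, and each was represented by the probe with the highest mean signal whose RefSeq accession belongs to it. All 42 had such a probe, among 15284 genes with a named probe and 12007 genes tested. Male Sprague-Dawley rats (Crl:CD(SD)), 5 weeks old when bought, were fed a basal diet. They were given corn oil as the vehicle control (VC in the labels, 3 rats) or ADBAQ at 1000 mg/kg/day (3 rats). RNA of each rat was read on its own Agilent array with 1 dye. By place of action, 19 of the genes were counted as mitochondrial and 11 as peroxisomal, 2 belonged to both organelles, and 3 were transcriptional regulators. The other 7 acted in the cytosol, in microsomes, at the plasma membrane or, for Pdk4, on pyruvate dehydrogenase. Pdk4 is a mitochondrial kinase but was kept out of the mitochondrial group.

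Mitochondria take up long-chain fatty acids as carnitine esters and shorten them by rounds of dehydrogenation, hydration, a further dehydrogenation and thiolysis, passing electrons to the respiratory chain. Peroxisomes run a parallel pathway for very long and branched chains in which an oxidase makes hydrogen peroxide, and they hand shortened chains on to mitochondria. Proximal tubule cells, which make up most of the renal cortex, draw much of their energy from fatty acid oxidation. Many of these genes are known targets of the nuclear receptor PPAR-alpha (Ppara), which binds DNA with RXR-alpha (Rxra) at a direct repeat of the hexamer AGGTCA with 1 base between the copies, called DR1.

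RefSeq promoter sequences (build GRCr8) were at hand for 37 of the 42 genes and were searched on both strands for DR1 (AGGTCA, any 1 base, AGGTCA) with up to 2 mismatches in its 12 fixed letters, from 250 bases before to 50 after the gene start. A match stood in 7 of the 37 (18.9%), against 3.77% of the 33469 promoter windows in the table, and 4 of 15 mitochondrial and 1 of 11 peroxisomal genes had one. With at most 1 mismatch, matches stood in Acadvl and Fabp1 (5.41% of the 37, against 0.439% of all windows), and no member had an exact match, which 0.0538% of all windows held. The other motif searched, TCAAGGTCA on both strands, the site of oestrogen-related receptors, stood in 0 of the 37 and in 0.433% of all windows. It overlaps DR1 in the letters AGGTCA. Acadl, Acaa2, Decr1, Cpt1b and Cyp4a1 were not matched to a promoter sequence. The 250 bases before the start are shown for Fabp1 and Acadvl, which had the closest matches, for Crat, whose transcript was lower in every ADBAQ rat, and for Pex11a, which had the smallest p of the members. Capitals mark the DR1 matches, and Pex11a has none in this window.
Fabp1 (GRCr8, chr4:104749090-104749339, plus strand): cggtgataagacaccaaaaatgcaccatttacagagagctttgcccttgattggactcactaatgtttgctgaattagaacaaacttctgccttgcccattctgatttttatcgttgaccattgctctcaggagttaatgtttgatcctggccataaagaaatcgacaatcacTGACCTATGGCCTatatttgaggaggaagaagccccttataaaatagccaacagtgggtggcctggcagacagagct
Acadvl (GRCr8, chr10:55236706-55236955, minus strand): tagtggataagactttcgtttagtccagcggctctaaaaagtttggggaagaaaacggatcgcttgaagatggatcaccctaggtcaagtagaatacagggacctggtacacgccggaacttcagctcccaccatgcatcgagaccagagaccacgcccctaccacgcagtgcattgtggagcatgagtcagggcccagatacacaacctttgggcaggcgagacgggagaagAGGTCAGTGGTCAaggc
Crat (GRCr8, chr3:34087100-34087349, minus strand): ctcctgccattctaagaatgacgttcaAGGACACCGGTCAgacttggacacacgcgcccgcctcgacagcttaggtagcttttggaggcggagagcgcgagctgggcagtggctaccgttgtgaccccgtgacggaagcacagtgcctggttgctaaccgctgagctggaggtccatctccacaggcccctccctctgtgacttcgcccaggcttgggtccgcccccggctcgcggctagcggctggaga
Pex11a (GRCr8, chr1:143096492-143096741, minus strand): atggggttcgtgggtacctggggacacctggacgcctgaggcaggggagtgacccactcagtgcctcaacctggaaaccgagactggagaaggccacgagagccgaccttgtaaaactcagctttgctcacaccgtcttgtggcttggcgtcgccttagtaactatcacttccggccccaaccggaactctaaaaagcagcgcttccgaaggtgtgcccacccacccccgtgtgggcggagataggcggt

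The other matches with 2 mismatches were AGGTCAGAGAGCA in Cat, AGACCTCTGATCT in Echs1, TTACCTTTGCCCT in Etfa and AGGTGAAAGGTCG in Slc25a20, the last after the gene start. Log2 differences of the members with a match ran from -0.29 for Slc25a20 and Crat to 0.15 for Etfa. A match describes the letters only, and a window without one says nothing of the factor.

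Signals are given as multiples of the 75th percentile of each array, which lay at 1126 to 1177 in corn oil and 1279 to 1307 in ADBAQ, and each array had 69.0% to 72.3% of its probes well above background. All 42 probes were well above background on all 6 arrays and 0 were saturated, so no value is a bound. Differences are log2 values, ADBAQ minus corn oil, with the standard error of limma's fit over all 12007 genes, and adjusted p refers to Benjamini-Hochberg over those genes. All corn oil arrays lay on 1 slide with 1 scan time and all ADBAQ arrays on another, so slide and treatment cannot be told apart. The samples are whole tissue, where fewer cells of a type and less RNA per cell cannot be told apart. Signals of different probes were not set against each other as levels, but were added up for the cell type markers below.

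ADBAQ rats had lower signals for most mitochondrial members and a mixed picture for peroxisomal ones. No member passed an adjusted p of 0.05, which 35 genes (0.291% of those tested) did, 0.0666% lower and 0.225% higher. At an unadjusted p under 0.05, 18 of 42 members (42.9%) were lower, against 10.5% of all genes tested, and 1, Ppargc1a, was higher, against 8.94%. All 3 ADBAQ arrays lay below all 3 corn oil arrays for 18 members (42.9%), against 14.8% of genes tested, and above them for 2, against 12.7%. The median difference was -0.19 over the 42 members and -0.011 over all genes tested, and 33 of the 42 values were negative (78.6%, against 52.3% of genes tested).

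**Figure D1:**
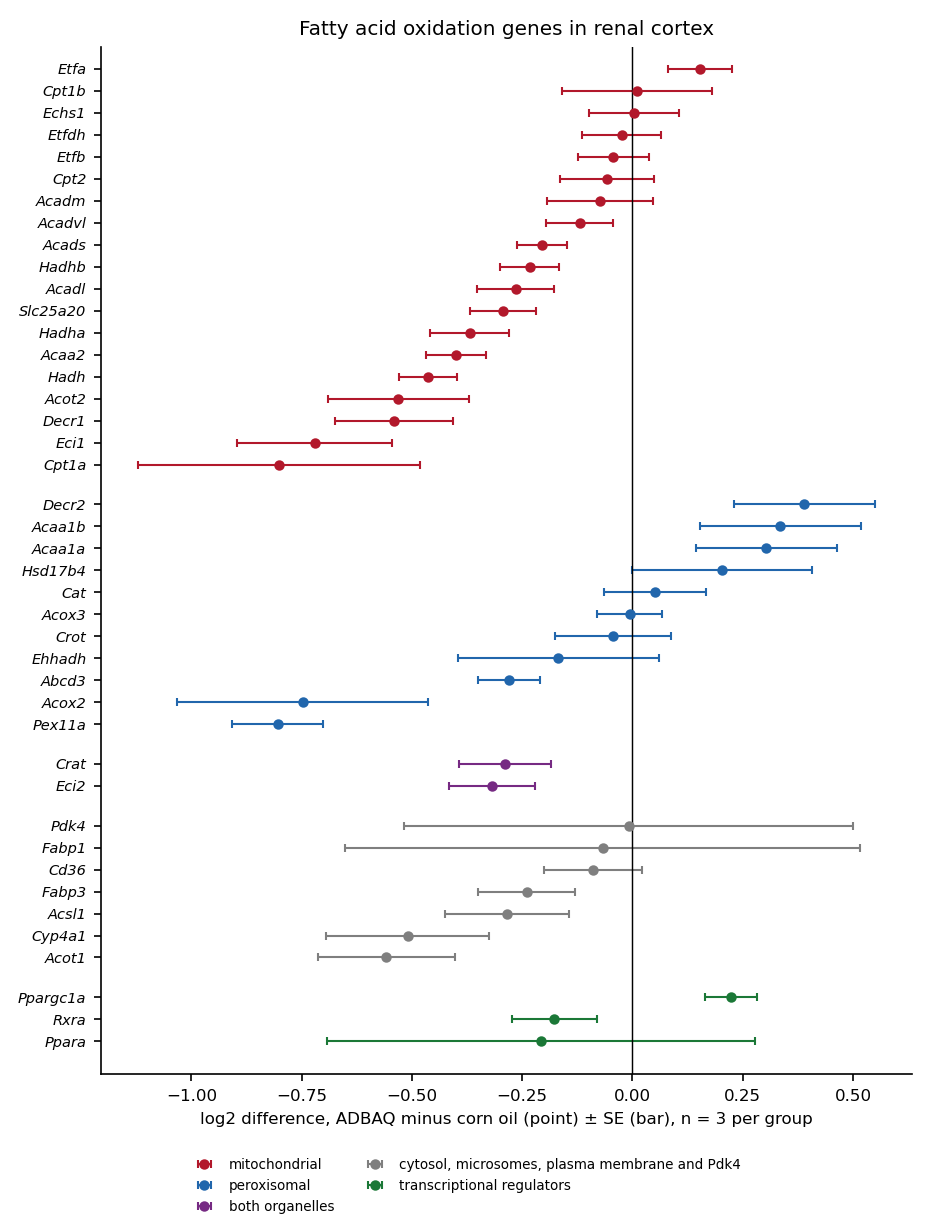
Log2 difference between ADBAQ and corn oil (x axis; point, estimate; bar, SE; n = 3 rats per group) for the 42 genes (y axis), grouped by place of action and ordered within each group. Of the 19 mitochondrial genes 16 lie left of 0, while 6 of the 11 peroxisomal genes do, from Pex11a at -0.80 to Decr2 at 0.39.

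Between the organelles, 11 of 19 mitochondrial members (57.9%) and 3 of 11 peroxisomal members (27.3%) were lower at an unadjusted p under 0.05. Of all genes tested 10.5% were lower, so both shares lay above it. Of either organelle 0 were higher, against 8.94% of genes tested. The median difference was -0.23 for mitochondrial and -0.0066 for peroxisomal members. The mean over mitochondrial members, as a log2 deviation from their corn oil mean, was 0.16, -0.12 and -0.038 in the corn oil rats and -0.32, -0.26 and -0.21 in the ADBAQ rats. These groups did not overlap. For peroxisomal members the same mean was 0.093, -0.12 and 0.030 in corn oil and -0.094, -0.041 and -0.074 in ADBAQ, with overlap. The peroxisomal mean minus the mitochondrial mean was -0.067, -0.00073 and 0.068 in corn oil and 0.22, 0.21 and 0.14 in ADBAQ (0.19 ± 0.046, SD, n = 3), so every ADBAQ rat lay above every corn oil rat. No p is given for these means, since the members were chosen with results of these arrays known. Restricted to enzymes that act on the acyl chain itself, the medians were -0.26 in mitochondria and 0.20 in peroxisomes. Without scaling between arrays, which moved the median of all genes tested to 0.15, 6 members were lower (14.3%, against 2.34% of genes tested) and 5 higher (11.9%, against 31.1%) at an unadjusted p under 0.05. The mitochondrial and peroxisomal medians were then -0.071 and 0.16, or -0.22 and 0.0042 relative to all genes tested.

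**Figure D2:**
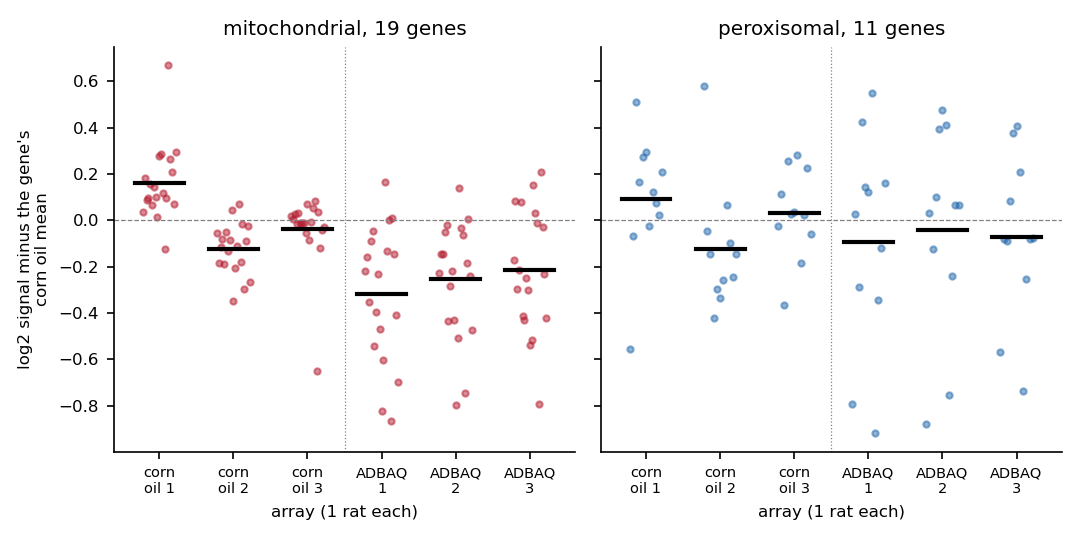
Log2 signal of each mitochondrial (left) and peroxisomal (right) gene minus its corn oil mean (y axis) on each of the 6 arrays (x axis); points are genes and black bars are means over genes. The mitochondrial means are -0.32 to -0.21 in ADBAQ, below all corn oil means, whereas the peroxisomal means of both groups overlap.

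**Figure D3:**
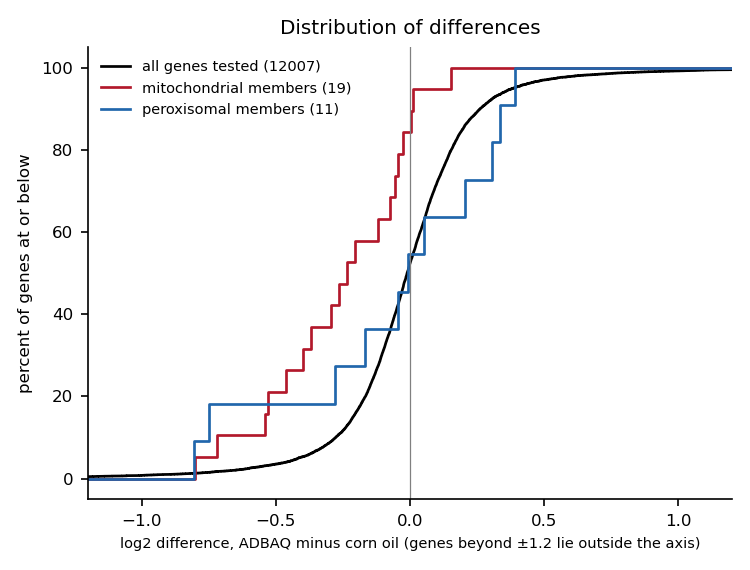
Cumulative percent of genes (y axis) at or below each log2 difference (x axis) for all 12007 genes tested (black), 19 mitochondrial members (red) and 11 peroxisomal members (blue). The mitochondrial curve lies left of the black one over most of its range, with 84.2% of its genes below 0, while the peroxisomal curve crosses it.

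The fatty acid first enters the cell and is activated. Cd36, a fatty acid uptake receptor, differed by -0.089 ± 0.11 SE (adjusted p = 0.689), and the binding protein Fabp3 by -0.24 ± 0.11 (adjusted p = 0.298; -0.15 without the first corn oil rat), with overlap in both. Acsl1, which joins fatty acids to coenzyme A, had signals of 53.8, 37.9 and 42.2 in corn oil and 33.8, 38.9 and 36.2 in ADBAQ (-0.28 ± 0.14 SE, adjusted p = 0.328). Its 4 probes gave differences of -0.35 to -0.15, and without the first corn oil rat the value was -0.14. Fabp1, the liver type binding protein and a textbook PPAR-alpha target, was dim, at 0.120, 0.156 and 0.141 in corn oil and 0.202, 0.226 and 0.0505 in ADBAQ. The third ADBAQ rat was low and the other two were high, and the difference was -0.067 ± 0.58 SE (adjusted p = 0.959).

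The carnitine shuttle carries acyl groups into mitochondria. Cpt1a, which makes acylcarnitine at the outer membrane and sets the pace of entry, had signals of 15.3, 9.52 and 6.13 in corn oil and 5.28, 5.75 and 5.55 in ADBAQ. The ADBAQ rats lay close together and below the corn oil rats, which spread over 2.497-fold, and the difference was -0.80 ± 0.32 SE (adjusted p = 0.251). Slc25a20, the carnitine carrier of the inner membrane, had 9.46, 8.86 and 8.74 in corn oil and 6.78, 7.63 and 7.68 in ADBAQ (-0.29 ± 0.074 SE, adjusted p = 0.138), without overlap. Cpt2, which reverses the Cpt1a reaction inside, was at -0.057 ± 0.11 (adjusted p = 0.793). Cpt1b, the muscle form of Cpt1, was at 0.010 ± 0.17 (adjusted p = 0.98), and its 3 probes ran from -0.0056 to 0.33. Crat, which exchanges acetyl groups with carnitine in both organelles, had 97.8, 80.9 and 92.7 in corn oil and 66.8, 80.1 and 75.1 in ADBAQ. Every ADBAQ rat was below every corn oil rat, by a small margin (-0.29 ± 0.10 SE, adjusted p = 0.221).

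Acyl-CoA dehydrogenases start each mitochondrial round, and the 4 members differ in the chain length they accept. All 4 had negative values, against 52.3% of genes tested. At an unadjusted p under 0.05, 2 of them, Acads for short and Acadl for long chains, were lower, against 10.5% of genes tested. Acads had signals of 51.8, 48.5 and 51.1 in corn oil and 43.4, 43.1 and 44.8 in ADBAQ (-0.21 ± 0.056 SE, adjusted p = 0.155). Acadl had 78.7, 68.5 and 75.6 in corn oil and 58.0, 67.1 and 60.4 in ADBAQ (-0.26 ± 0.086 SE, adjusted p = 0.194). In both the groups did not overlap. Acadm for medium chains was at -0.074 ± 0.12 (adjusted p = 0.762) and Acadvl for very long chains at -0.12 ± 0.076 (adjusted p = 0.428), with overlap. Electrons from these enzymes pass through the flavoprotein Etfa and Etfb to Etfdh. Here 0 of 3 were lower at an unadjusted p under 0.05, against 10.5% of genes tested. Etfb was at -0.043 ± 0.081 and Etfdh at -0.025 ± 0.090 (adjusted p = 0.795 and 0.9). Etfa was higher in every ADBAQ rat, with 8.53, 8.39 and 8.46 against 8.25, 7.04 and 7.58 (0.15 ± 0.073 SE, adjusted p = 0.315; 0.098 without the second corn oil rat).

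The steps from hydration to thiolysis held the mitochondrial genes with the smallest p. Hadh, the hydroxyacyl-CoA dehydrogenase of the matrix, had signals of 190.8, 176 and 181 in corn oil and 125, 135 and 137 in ADBAQ. The groups were far apart, at a ratio of 0.725 (-0.46 ± 0.066 SE, adjusted p = 0.0642, rank 83 of all genes tested by p), and its other probe gave -0.45. Acaa2, the matrix thiolase, had 64.9, 66.3 and 62.0 in corn oil and 46.5, 47.8 and 52.3 in ADBAQ, again without overlap (ratio 0.758, -0.40 ± 0.069 SE, adjusted p = 0.0854), and -0.55 on its other probe. Hadha and Hadhb, the subunits of the trifunctional protein that handles long chains on the inner membrane, were both lower in every ADBAQ rat. Hadha had 12.9, 10.67 and 11.6 in corn oil and 8.88, 9.60 and 8.68 in ADBAQ (-0.37 ± 0.090 SE, adjusted p = 0.136; its 3 probes ran from -0.42 to -0.30). Hadhb had 6.60, 5.81 and 6.11 in corn oil and 5.25, 5.30 and 5.19 in ADBAQ (-0.23 ± 0.066 SE, adjusted p = 0.162). Echs1, the hydratase for short chains, was the exception in this group, at 0.0038 ± 0.10 SE (adjusted p = 0.988), with 94.1 to 119.5 in corn oil and 104.0 to 113 in ADBAQ.

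Unsaturated fatty acids need auxiliary enzymes, and both mitochondrial ones were lower in every ADBAQ rat. Eci1, an enoyl-CoA isomerase, had signals of 94.1, 61.1 and 81.7 in corn oil and 43.9, 44.7 and 53.5 in ADBAQ (ratio 0.607, -0.72 ± 0.18 SE, adjusted p = 0.136). Decr1, a dienoyl-CoA reductase, had 61.2, 43.5 and 47.3 in corn oil and 33.04, 35.3 and 35.0 in ADBAQ (ratio 0.687, -0.54 ± 0.13 SE, adjusted p = 0.137). Decr2, its peroxisomal counterpart, had values in the other direction, at 7.13, 6.07 and 8.82 in corn oil and 10.6, 9.65 and 8.37 in ADBAQ (0.39 ± 0.16 SE, adjusted p = 0.261), with overlap. Eci2, an isomerase of both organelles, had 30.2, 24.0 and 28.1 in corn oil and 22.5, 21.0 and 22.3 in ADBAQ, lower in every ADBAQ rat (-0.32 ± 0.098 SE, adjusted p = 0.177).

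Acyl-CoA thioesterases release free fatty acids again. Acot2, the mitochondrial form, had signals of 23.7, 16.0 and 18.9 in corn oil and 11.9, 13.9 and 14.4 in ADBAQ (-0.53 ± 0.16 SE, adjusted p = 0.174), and its other probe gave -0.37. Acot1, the cytosolic form, had 45.5, 32.9 and 41.8 in corn oil and 23.3, 28.2 and 29.9 in ADBAQ (-0.56 ± 0.16 SE, adjusted p = 0.158). Neither overlapped between groups, but these paralogs are almost the same in sequence, and a probe may read both. Cyp4a1, the microsomal hydroxylase that starts omega-oxidation, had 64.1, 53.2 and 39.2 in corn oil and 38.9, 33.7 and 35.3 in ADBAQ (-0.51 ± 0.18 SE, adjusted p = 0.22; -0.52 on its other probe), and it too belongs to a family of close copies. Pdk4, which turns off pyruvate dehydrogenase when fat is burned, had 0.658, 0.223 and 0.161 in corn oil and 0.290, 0.286 and 0.280 in ADBAQ. The first corn oil rat was high, the ADBAQ rats were almost equal, and the difference was -0.0084 ± 0.51 SE (adjusted p = 0.994).

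**Figure D4:**
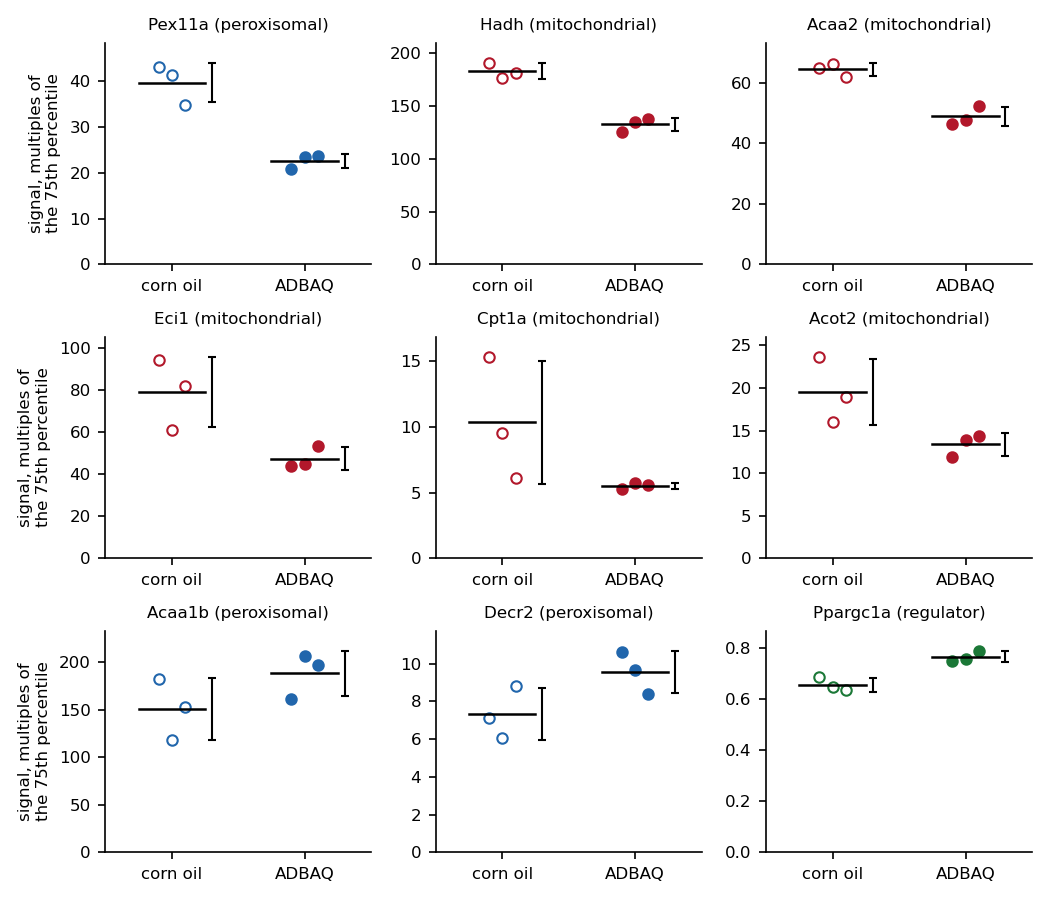
Signal in multiples of the array's 75th percentile (y axes, from 0) for 9 genes in corn oil (open) and ADBAQ (filled) rats; points are rats, lines are means and bars are SD (n = 3). The groups are separate for all but Acaa1b and Decr2, and Cpt1a, Eci1 and Acot2 spread more in corn oil than in ADBAQ.

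The peroxisomal members with an unadjusted p under 0.05 were Pex11a, Abcd3 and Acox2. Pex11a, a membrane protein of peroxisome division, had signals of 42.9, 41.2 and 34.7 in corn oil and 20.9, 23.4 and 23.6 in ADBAQ. The groups were well separated, at a ratio of 0.572 (-0.80 ± 0.10 SE, adjusted p = 0.0547, rank 53 by p), and its 3 probes gave -1.01 to -0.79. Abcd3, the membrane transporter that brings acyl-CoA in, had 79.7, 70.6 and 76.7 in corn oil and 59.5, 64.0 and 63.4 in ADBAQ (-0.28 ± 0.070 SE, adjusted p = 0.137), without overlap. Crot, which makes carnitine esters of the shortened chains for export, was at -0.045 ± 0.13 (adjusted p = 0.871). Cat, the catalase that breaks down hydrogen peroxide, was at 0.051 ± 0.12 (adjusted p = 0.834), with signals of 7.10 to 9.07 in corn oil and 7.44 to 8.79 in ADBAQ.

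Within the peroxisomal pathway, Acox2, an acyl-CoA oxidase, was dim. Its signals were 0.0773, 0.169 and 0.112 in corn oil and 0.0654, 0.0617 and 0.0765 in ADBAQ. The difference was -0.75 ± 0.28 SE (adjusted p = 0.236). The groups barely separated, as the first corn oil rat was hardly above the third ADBAQ rat, and without the second corn oil rat, the highest, the value was -0.46. Acox3, another acyl-CoA oxidase, was also dim (0.0937 to 0.107 over the arrays) and was at -0.0066 ± 0.074 (adjusted p = 0.969). Ehhadh, the bifunctional enzyme and a common PPAR-alpha target, had 11.9, 7.51 and 6.46 in corn oil and 6.82, 7.62 and 7.80 in ADBAQ, with only the first corn oil rat apart (-0.17 ± 0.23 SE, adjusted p = 0.716; 0.088 without it). Hsd17b4, the other multifunctional enzyme, had 60.8, 40.4 and 64.8 in corn oil and 72.8, 58.1 and 57.5 in ADBAQ (0.20 ± 0.20 SE, adjusted p = 0.619), and -0.0084 without the second corn oil rat. Its other probe gave 0.085.

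The peroxisomal thiolases Acaa1a and Acaa1b had positive values with overlap. Acaa1a had signals of 105.7, 71.2 and 89.3 in corn oil and 96.6, 115 and 113.6 in ADBAQ (0.30 ± 0.16 SE, adjusted p = 0.348), and Acaa1b had 183, 118 and 153 in corn oil and 162, 207 and 197 in ADBAQ (0.34 ± 0.18 SE, adjusted p = 0.363). Without the second corn oil rat, the lowest in both, the values were 0.15 and 0.17. The order of the 3 corn oil rats was the same in both genes, and so was that of the ADBAQ rats. The copies are near-identical, and their probes may read both. The 3 probes of Acaa1a ran from -0.060 to 0.37, the lowest with a sign of its own, and those of Acaa1b from 0.23 to 0.41. No member of the peroxisomal steps from hydration to thiolysis was lower at an unadjusted p under 0.05, against 4 of 5 mitochondrial ones. The share over all genes tested was 10.5%.

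Of the regulators, Ppara had signals of 2.18, 1.02 and 1.2003 in corn oil and 0.616, 1.67 and 1.67 in ADBAQ. It varied over 2.14-fold in corn oil and 2.72-fold in ADBAQ, and the difference was -0.21 ± 0.49 SE (adjusted p = 0.836; -0.22 on its other probe). Rxra was at -0.18 ± 0.097 (adjusted p = 0.366). Ppargc1a, a coactivator of PPAR-alpha and of mitochondrial biogenesis, had 0.686, 0.649 and 0.635 in corn oil and 0.751, 0.757 and 0.791 in ADBAQ, higher in every ADBAQ rat (ratio 1.17, 0.22 ± 0.059 SE, adjusted p = 0.151).

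The first corn oil rat stood out in these genes. It had the highest corn oil signal for 34 of 42 members (81.0%), against 33.5% of all genes tested, and on the log2 scale it exceeded the mean of the other two by 1.79 for Pdk4, 1.00 for Cpt1a, 0.98 for Ppara and 0.77 for Ehhadh. The median SD of log2 signals was 0.18 over members in corn oil and 0.10 in ADBAQ, against 0.11 and 0.099 over all genes tested, and 35 of 42 members had the larger SD in corn oil (83.3%, against 55.5%). Without this rat, 14 members were lower and 5 higher at an unadjusted p under 0.05 (33.3% and 11.9%, against 10.4% and 8.74% of genes tested). The mitochondrial and peroxisomal medians were then -0.19 and 0.088. The differences of Cpt1a, Hadh, Pex11a and Acaa2 without it were -0.47, -0.43, -0.74 and -0.39.

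Cell type markers were read on the same arrays. Summed over 20 proximal tubule markers, the signal was 3417 to 3566 in corn oil and 3231 to 3334 in ADBAQ, without overlap. Bright probes weigh most in such a sum. Among the brightest, Miox (-0.21 ± 0.053 SE) and Slc13a3 (-0.20 ± 0.065) were lower at an unadjusted p under 0.05. Slc34a1 (-0.053 ± 0.053) and Fbp1 (0.0073 ± 0.051), also among the brightest, were not. All 20 markers were well above background on every array, and their median difference was -0.081. At an unadjusted p under 0.05, 6 of them (30.0%, against 10.5% of genes tested) were lower and 0 higher. Of the 20 values 12 were negative and 8 positive, from Slc7a13 (-0.66 ± 0.82 SE) to the amidinotransferase Gatm (0.32 ± 0.17). Slc7a13 varied from 12.4 to 78.2 within corn oil. The phosphate transporter Slc34a3 was at -0.39 ± 0.084, the water channel Aqp1 at -0.44 ± 0.11 and the amino acid transporter Slc7a7 at 0.22 ± 0.094. Red cell markers, 6 of 9 with a probe, summed to 458 to 514 in corn oil and 791 to 922 in ADBAQ. The sums of thick limb and distal tubule, collecting duct, glomerulus, endothelium, fibroblast, leukocyte, fat and striated muscle markers overlapped between groups. Of 11 collecting duct markers, however, 4 were higher at an unadjusted p under 0.05 (36.4%, against 8.94% of genes tested) and above corn oil in every ADBAQ rat. They were Slc4a1 (0.62 ± 0.13), which red cells also express, Rhcg (0.41 ± 0.090), Scnn1g (0.26 ± 0.065) and Atp6v0d2 (0.23 ± 0.089). Fat markers summed to 2.20 to 2.54 in corn oil and 2.17 to 2.41 in ADBAQ, with 4 of 7 above background on all arrays, and muscle markers to 0.791 to 1.05 and 1.03 to 1.13, with 2 of 9 above background on no array. The part of proximal tubule, collecting duct and red cell RNA in the results above was not tested.

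Other genes of the pathway, 126 in all, were tested in 7 lists. Of these 0 passed an adjusted p of 0.05 in limma's fit, and 16 were lower (12.7%) and 7 higher (5.56%) at an unadjusted p under 0.05. These shares are near those of all genes tested, 10.5% lower and 8.94% higher. Further PPAR-alpha responsive genes had 4 of 17 lower (23.5%) and 0 higher, led by Creb3l3, a membrane-bound transcription factor of lipid metabolism, with 11.8, 6.49 and 5.39 in corn oil and 1.503, 2.35 and 2.15 in ADBAQ (-1.92 ± 0.33 SE, adjusted p = 0.0843), and the hydroxylase Cyp4a2 (-0.35 ± 0.10, adjusted p = 0.169). Creb3l3 thus differed more than any of the 42 members. Fatty acid uptake, activation and lipid droplet genes had 3 of 18 lower (16.7%) and 1 higher (5.56%), with the acyl-CoA binding protein Dbi at -0.41 ± 0.080 (adjusted p = 0.105) and the lipase Mgll at -0.61 ± 0.14 (adjusted p = 0.119). A further list of mostly peroxisomal genes had 5 of 30 lower (16.7%) and 1 higher (3.33%). The isomerase Ech1 was at -0.39 ± 0.086 and the reductase Far1 at -0.36 ± 0.087 (adjusted p = 0.121 and 0.133). This list also held genes outside acyl-CoA metabolism, such as the amino acid oxidase Dao (-0.32 ± 0.10, adjusted p = 0.19), 1 of those lower.

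Further genes of mitochondrial acyl-CoA metabolism had 0 of 22 lower and 1 higher (4.55%), against 10.5% and 8.94% of all genes tested. That one was Hibch, a hydrolase of valine breakdown, with 0.873, 0.771 and 0.793 in corn oil and 1.15, 1.18 and 1.14 in ADBAQ (0.51 ± 0.068 SE, adjusted p = 0.0551), and Acss1, an acetyl-CoA synthetase, was at 0.19 ± 0.078 (adjusted p = 0.263). The median of this list was 0.058, with 7 of 22 values negative, and that of the further peroxisomal genes -0.13, with 21 of 30 negative and 10 of 30 below corn oil in every ADBAQ rat (33.3%, against 14.8% of genes tested). In these wider lists the order of the organelles was thus opposite to that among the members, where the medians were -0.23 and -0.0066. The wider peroxisomal list reaches beyond acyl-CoA metabolism, and the wider mitochondrial list holds genes of amino acid breakdown, such as Hibch. The lists are therefore not matched in function, with each other or with the members. Ketone body genes had 2 of 6 lower (33.3%) and 0 higher, with a median of -0.20. In 3 of the 6 every ADBAQ rat lay below every corn oil rat (50%, against 14.8% of genes tested). Bdh2, a hydroxybutyrate dehydrogenase of this list, was at -0.31 ± 0.074 (adjusted p = 0.135). Peroxins, which assemble peroxisomes, had 1 of 15 lower (6.67%) and 3 higher (20.0%), with Pex26 at 0.46 ± 0.093 and Pex11g, a relative of Pex11a, at -0.32 ± 0.085 (adjusted p = 0.108 and 0.151). Other regulators had 1 of 18 lower (5.56%) and 1 higher (5.56%). The higher one was Lpin1, a phosphatidate phosphatase and coactivator, at 0.23 ± 0.086 (adjusted p = 0.229). It was dim, with signals of 0.0298 to 0.0338 in corn oil and 0.0338 to 0.0391 in ADBAQ.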

How the data were processed

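Total RNA of the renal cortex of 6 rats was labelled with Cy3 and hybridised to Agilent arrays of 62976 spots. The deposited values are background-subtracted signal intensity per spot from Agilent Feature Extraction 10.7.1.1, per the file headers (10.7 in the submitters' processing notes). Median signal and background intensity and flags per spot (other units) come from the same deposited files. In the authors' deposited table each array's values are a ratio, the processed signal divided by a constant that lies within 0.0858% of the 75th percentile.

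Control spots (1319) and 73 outlier probes were left out. Signals were log2 transformed and the 75th percentile of each array was subtracted. Probes well above background on all 3 arrays of a group were kept. Accessions were matched to RefSeq genes (assembly GRCr8, used for names and promoter sequences), which named 27460 of 61657 probes (44.5%). Each gene was represented by its brightest tested probe. ADBAQ was set against corn oil without covariates by limma's moderated test (lmFit and eBayes, limma 3.58.1, R 4.3.3), two-sided, and p-values were adjusted over 12007 genes by Benjamini-Hochberg. The code was tested on simulated data. A permutation test of 3 against 3 cannot go below 0.10, so p-values rest on limma's model, and the precision is limited by 3 arrays per group. Replicates are separate animals per the labels. Figures were drawn with matplotlib 3.10.9.

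The members, their grouping by organelle and the other lists were chosen with earlier results of these data known. The naming rule takes all members, and of each other list the genes past the threshold or else the 2 with the smallest p. Some of these are not reported here. Marker genes named were chosen after their values were seen. Alternatives changed the filter, background correction, scaling, variance model, probe summary, source of values, replicate block, organelle assignment and the arrays used.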

Additional observations from a re-analysis of the deposited data

How the results depend on the processing

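Over the alternatives, 590 of 630 member values kept their sign, as did 26 of 42 members under every one. The peroxisomal minus mitochondrial median (0.23) stayed positive. In some alternatives a sign could hardly turn, so these counts overstate the agreement. The variance model and the replicate block leave each value as it is. Both changes of the filter kept the same member probes, and the authors' table holds the same signal over a constant. Hadh and Pex11a passed an adjusted p of 0.05 under 3 alternatives (ranges 0.0265 to 0.22 and 0.0242 to 0.212), and Acaa2 and Ppargc1a under 1 each. With normexp background correction, 2 members were lower at adjusted p and 4 higher at unadjusted p. Of the other pathway genes 1 was then higher at adjusted p and 29 lower at unadjusted p. The medians were -0.16 (mitochondrial) and 0.0057 (peroxisomal), 0.17 apart, and Etfb (0.0016), Etfdh (0.020), Cpt1b (-0.081), Acox3 (0.071) and Pdk4 (0.0011) turned sign. With quantile normalization, 4 members and 11 other genes were higher at unadjusted p, and Etfb (0.023), Etfdh (0.014) and the median of all genes (0.0068) turned sign. Without scaling, 2 members were lower and 1 higher at adjusted p, and 6 lower and 5 higher at unadjusted p (mitochondrial 4 lower, peroxisomal 1 lower). Of the other genes 1 was then lower and 8 higher at adjusted p, and 6 lower and 36 higher at unadjusted p. The medians were -0.071, 0.16 and, over all genes, 0.15, and Acadm (0.089), Acadvl (0.043), Etfb (0.12), Etfdh (0.14), Cpt2 (0.11), Acox3 (0.16), Crot (0.12), Cd36 (0.073), Fabp1 (0.096) and Pdk4 (0.15) turned sign. With an intensity trend and robust variances, 3 members were lower at adjusted p and 2 higher at unadjusted p, and 1 other gene was lower and 1 higher at adjusted p. Without the filter on dim probes the median of all genes was 0.011, and with the mean of a gene's probes Cd36 was at 0.011. Genes passing adjusted p numbered 8 lower and 27 higher, 78 and 67 with normexp, 84 and 72 with the trend, and 54 and 1027 without scaling. With Crat and Eci2 counted as peroxisomal, that median was -0.045 with 5 lower. With acyl chain enzymes only it was 0.20, 0.47 above the mitochondrial one, with 1 lower.

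Leaving out 1 array at a time, 13 to 16 members were lower and 1 to 5 higher at unadjusted p, and 4 to 8 other genes higher. The peroxisomal median was -0.029 to 0.088, and the difference of medians 0.21 to 0.29. Values that turned sign ran from -0.17 to 0.017 for Acadm, -0.090 to 0.082 for Echs1, -0.10 to 0.00090 for Etfb, -0.11 to 0.024 for Etfdh, -0.14 to 0.14 for Cpt1b, -0.12 to 0.048 for Cpt2, -0.041 to 0.050 for Acox3, -0.35 to 0.088 for Ehhadh, -0.0084 to 0.33 for Hsd17b4, -0.17 to 0.068 for Crot, -0.023 to 0.15 for Cat, -0.46 to 0.63 for Fabp1, -0.42 to 0.59 for Pdk4 and -0.45 to 0.27 for Ppara. The cause was not tested for any of these. Same-numbered arrays deviated together with correlations of 0.0094, 0.035 and 0.157, so the numbers are not shown to pair the rats. With the replicate block, 14 members were lower and 1 higher at unadjusted p, and 0 genes passed adjusted p.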
